A study of Mus musculus with 2 samples.

Results

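Transcripts of 7 granzyme genes and of perforin, the toolkit with which lymphocytes kill other cells, were measured in single cells of mouse tumors. The genes are Gzma, Gzmb, Gzmc, Gzmd, Gzme, Gzmf, Gzmk and Prf1. They were taken by symbol, and all 8 are among the 16416 genes of the deposited table. The cells came from tumors grown as grafts in wild-type (WT) animals, or in animals in which serines 303 and 307 of heat shock factor 1 (HSF1, a transcription factor of the protein stress response) are replaced by alanine (S303/7A). The design text calls mutant mice of this study HSF1-enhanced. Each genotype is 1 library, and the text speaks of tumors of 4 mice being pooled, so single mice are not resolved and no difference has a replicate check. The labels give the genotype of the mice, and the origin of the engrafted tumor cells is not given in the sources used here. Live CD45+ and CD45- cells were sorted, mixed 5 to 1 and sequenced from the 3' end of transcripts. The WT library has 6654 cells and the S303/7A library 4802.

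Granzymes are serine proteases stored with perforin in the granules of natural killer (NK) cells and CD8 T cells. When such a cell meets its target, perforin forms pores in the target's membrane and granzymes enter. Granzyme B cuts after aspartate and starts caspase-driven death, and granzymes A and K cut after basic residues. Granzymes C, D, E and F belong to a rodent expansion of the granzyme B locus and appear in strongly stimulated lymphocytes. Regulatory T cells (Treg) in tumors are also known to make granzyme B.

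Genome positions separate the members into 3 groups. On GRCm38 with GENCODE release M21, Gzme, Gzmd, Gzmf, Gzmc and Gzmb lie in this order on the minus strand of chromosome 14, together with Gzmg and Gzmn, from 56117626 to 56262260, a stretch of 144.6 kb. Gzma (113093825 to 113100981) and Gzmk (113171608 to 113225908) are neighbours on the minus strand of chromosome 13, with 70.6 kb between them. Prf1 is alone on the plus strand of chromosome 10, from 61297833 to 61304680.

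The 120 bases before the RefSeq start sites (GRCm38.p6; all 8 members matched by symbol) are shown for Gzmb, Gzmc, Gzmd, Gzme, Gzmf and Gzma, because the first 5 are neighbours whose transcripts were found together or apart in the cells below, and Gzma is the member that differed most between the libraries in CD8 T cells. Capitals mark the letters of the Runt motif TGTGGT, read on either strand.
Gzmb, chr14:56262335-56262454, minus strand: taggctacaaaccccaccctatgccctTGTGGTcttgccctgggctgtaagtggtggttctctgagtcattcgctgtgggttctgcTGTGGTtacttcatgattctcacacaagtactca
Gzmc, chr14:56234658-56234777, minus strand: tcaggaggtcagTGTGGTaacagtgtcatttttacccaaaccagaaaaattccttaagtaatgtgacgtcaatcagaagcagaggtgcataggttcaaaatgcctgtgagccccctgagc
Gzmd, chr14:56132594-56132713, minus strand: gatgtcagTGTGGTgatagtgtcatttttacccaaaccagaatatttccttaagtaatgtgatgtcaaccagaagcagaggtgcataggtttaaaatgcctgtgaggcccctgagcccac
Gzme, chr14:56120626-56120745, minus strand: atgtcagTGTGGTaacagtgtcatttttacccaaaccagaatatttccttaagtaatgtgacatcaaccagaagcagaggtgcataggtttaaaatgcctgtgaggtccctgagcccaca
Gzmf, chr14:56211408-56211527, minus strand: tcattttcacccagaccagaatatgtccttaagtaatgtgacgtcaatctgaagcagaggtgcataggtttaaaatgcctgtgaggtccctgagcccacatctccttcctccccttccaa
Gzma, chr13:113100982-113101101, minus strand: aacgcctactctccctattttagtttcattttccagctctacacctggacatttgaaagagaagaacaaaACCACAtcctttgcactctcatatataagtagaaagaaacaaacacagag

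Over the 250 bases before the start, Gzmd and Gzme were 94.8% identical. Gzmc was 81.3% identical to Gzmd and 81.8% to Gzme, and Gzmf was 71.5% to 75.4% identical to these 3. Gzmb was 47.3% to 52.2% identical to each of the other members, and Gzma and Prf1, on different chromosomes, were 48.8% identical. So Gzmb shares the chromosome 14 cluster but not the upstream sequence that Gzmc, Gzmd, Gzme and Gzmf have in common. The Runt letters occur in these 250 bases in 7 of the 8 members, all but Gzmk, against 14.05% of all 32851 promoter windows of that length. The Gzmf matches lie upstream of its printed stretch. The letters TGACGTCA, the cyclic AMP response element, are in Gzmc and Gzmf (1.546% of windows), AGGAAGT of the ETS family in Gzmc, Gzmd, Gzme, Gzmf and Prf1 (7.686%), TGANTCA of AP-1 in Gzmb (6.749%) and GGTGTGA of the T-box family in Gzmk (3.333%). The letters GAANNTTC of the heat shock element are in 6.694% of windows and in no member's window. Gzmc, Gzmd, Gzme and Gzmf share much of this sequence, so their matches are not independent and no enrichment can be read from these counts. Both strands were read for each motif, a palindromic match was counted once as a window, and a match is a description of letters only.

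Levels below are unique molecular identifiers (UMIs, each marking 1 captured RNA molecule) per 10000 UMIs of a cell (CP10K), averaged over cells. A ratio is the members' UMIs as a fraction of all UMIs of the class, S303/7A over WT, with an exact 95% interval. Such intervals describe the error of counting, and no more, because cells of a library are not replicates. A gene counts as lower or higher where the ratio passes 1.5-fold and both libraries together hold at least 50 of its UMIs. Library depth differed: the median NK cell had 3621 UMIs in WT and 5864 in S303/7A, the median CD8 T cell 6294 and 8325, and the median Treg 2022 and 3702. In some comparisons cells were therefore thinned at random to 3000 UMIs each, which left 228 of 357 WT and 174 of 194 S303/7A NK cells. The classes are the authors' deposited annotation. In NK cells Ncr1 was found in 68.6% and 78.9% of cells and Cd3e, a T cell receptor component, in 8.96% and 14.4%. In CD8 T cells (CD8T), Cd3e was found in 89.5% and 96.9% and Ncr1 in 2.17% and 2.11%. In Treg, Foxp3 was found in 43.9% and 61.8%. The 48 cell barcodes that both libraries share changed no count of calls when left out.

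Each lymphocyte class had its own set of members. NK cells (cluster C10, 357 WT and 194 S303/7A cells) had the highest level of Gzma, Gzmb, Gzmc, Gzmd and Prf1 in both libraries. Treg (C12, 255 and 220 cells) were second only for Gzmb, at 33.7 CP10K (WT) and 22.6 (S303/7A), and were at 0.293 CP10K or less for every other member. The CD8T clusters C06 (387 and 441 cells) and C11 (306 and 176 cells) led for Gzmk, and C06 for Gzme. With 1 library per genotype there is no spread between samples against which neighbours in these orders could be compared.

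**Figure D1:**
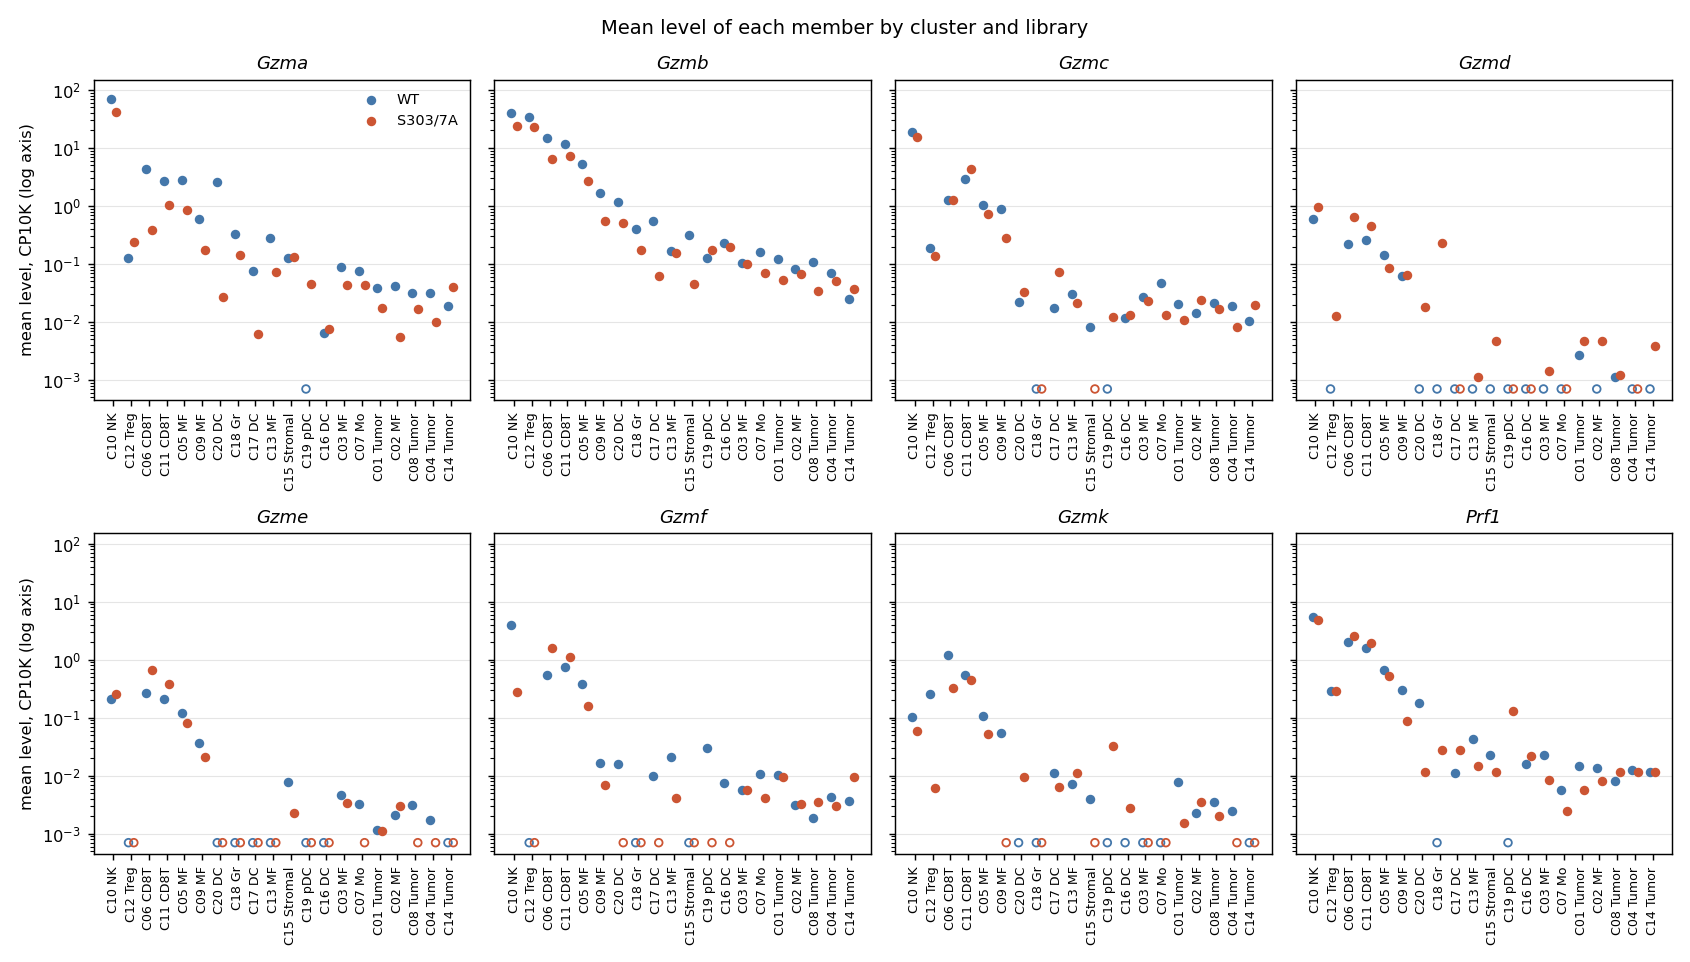
Mean level of the 8 members (CP10K, log axis) in the 20 clusters with at least 20 cells in each library; blue points are WT, orange points S303/7A, and open points at the bottom mark levels under 0.001 CP10K. High points of Gzma, Gzmb, Gzmc and Prf1 sit in NK cluster C10, and Treg cluster C12 is high for Gzmb only (33.7 and 22.6 CP10K).

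Perforin followed the same order in both libraries: NK, then C06, C11 and C05, a cluster deposited as macrophages. Prf1, whose product makes the pore, reached 5.40 CP10K in NK cells of WT and 4.80 in those of S303/7A, 1.99 and 2.59 in C06, and 1.61 and 1.92 in C11. It was found in 65.0% and 71.7% of NK cells, and after thinning to 1000 UMIs in 33.0% and 30.6%. In Treg it was at 0.293 and 0.284 CP10K, on 15 and 16 UMIs. Its UMI ratio was 0.851 (0.758 to 0.953) in NK cells, 1.28 (1.14 to 1.44) in C06 and 1.19 (1.05 to 1.35) in C11, all within 1.5-fold. Prf1 in S303/7A came to 0.897 of WT in C06 and 0.838 in C11 when cells holding any UMI of another cell type's markers were left out, but that left 34 and 5 S303/7A cells.

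Granzyme B stood high in NK cells and Treg alike. NK cells had Gzmb at 40.5 CP10K (WT) and 23.6 (S303/7A), and the Treg level was nearer to the NK level than to that of either CD8T cluster. In C06 it was at 14.6 and 6.33 CP10K and in C11 at 11.7 and 7.28. It was found in 76.5% (95% interval 71.9 to 80.6) of WT and 53.1% (48.3 to 57.8) of S303/7A cells in C06, in 85.0% and 71.0% in C11, and in 69.8% and 77.3% of Treg. The ratio was 0.419 (0.396 to 0.443) in C06, 0.576 (0.545 to 0.610) in C11 (0.772 in cells thinned to 1000 UMIs, inside 1.5-fold) and 0.598 (0.562 to 0.636) in Treg. Every cluster named here was lower in S303/7A by this measure.

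The Gzmb differences had different shapes. After thinning to 3000 UMIs, C06 differed at every count shown: 75.6% of WT and 44.0% of S303/7A cells held at least 1 Gzmb UMI, and 13.6% and 5.99% held at least 10. In NK cells the shares were 89.9% and 76.4% for at least 1, and 7.02% and 2.87% for at least 30. In Treg the share with at least 1 was nearly the same, 76.1% of 71 cells and 75% of 132, and the libraries parted at high counts, with 9.86% and 3.79% of cells at 30 or more. Per cell without scaling, Treg held 8.05 Gzmb UMIs in WT and 8.96 in S303/7A, NK cells 13.7 and 13.2, C06 7.51 and 4.78, and C11 12.5 and 10.1. The lower Treg ratio is thus a lower fraction of a larger UMI total. The Treg ratio was 0.669 when levels were averaged over cells and 0.693 in cells thinned to 1000 UMIs, both just inside 1.5-fold.

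**Figure D2:**
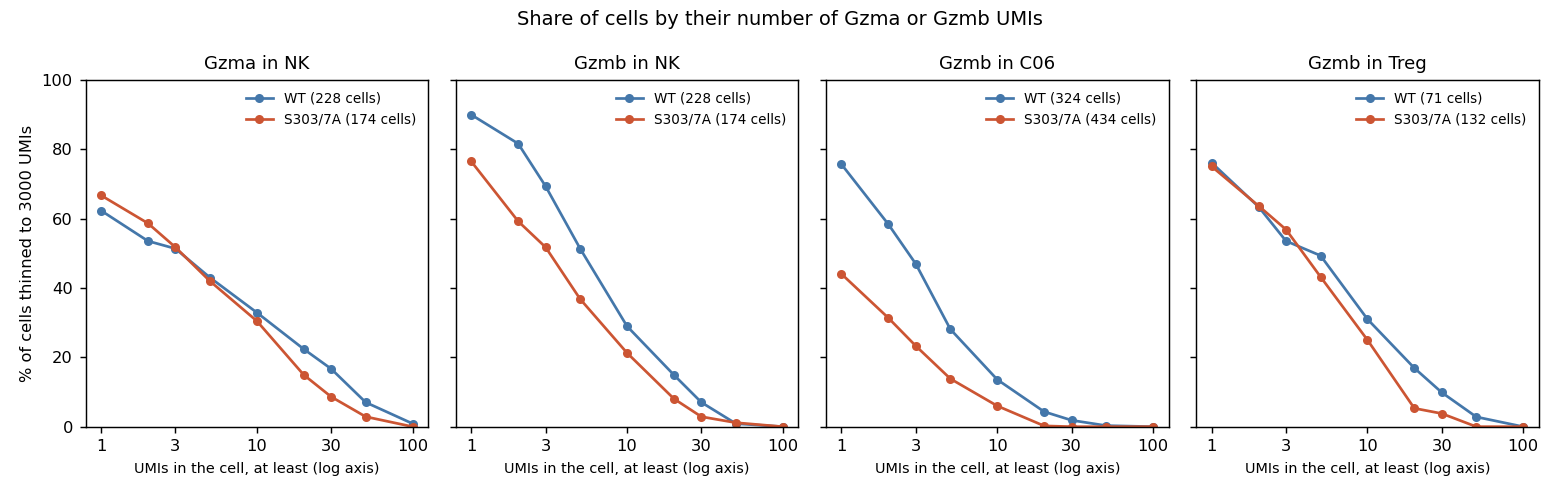
Percent of cells (each thinned to 3000 UMIs) that hold at least the number of UMIs on the log-scaled horizontal axis, for Gzma and Gzmb in NK cells and Gzmb in CD8T cluster C06 and in Treg; blue is WT, orange S303/7A. In C06 the lines part from the first UMI (75.6% and 44.0%), while in Treg they start together (76.1% and 75%). Only 71 of 255 WT and 132 of 220 S303/7A Treg were deep enough to be drawn.

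Granzyme A was close to an NK transcript. NK cells had Gzma at 70.2 CP10K (WT) and 41.5 (S303/7A), against 4.33 and 0.386 in C06, 2.72 and 1.05 in C11, and 0.128 and 0.243 in Treg (10 and 15 UMIs). The share of NK cells that held it was not lower in S303/7A: 70.6% of WT cells (65.6 to 75.3) and 74.2% of S303/7A cells (67.5 to 80.2), and 59.9% and 60.6% after thinning to 1000 UMIs. The NK libraries parted among the cells with most Gzma. After thinning to 3000 UMIs, 32.9% of WT and 30.5% of S303/7A NK cells held at least 10 Gzma UMIs, and 16.7% and 8.62% held at least 30. The NK ratio, 0.544 (0.523 to 0.567), thus came with fewer very high cells rather than fewer positive cells.

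In CD8 T cells the share differed too. It was found in 12.4% (9.29 to 16.1) of WT and 2.95% (1.58 to 4.99) of S303/7A cells of C06, with a ratio of 0.0598 (0.0470 to 0.0751), and in 14.7% and 7.39% of C11, with a ratio of 0.322 (0.273 to 0.378). Few cells carried these transcripts: in C06 the 10 cells with most Gzma held 77.7% of its UMIs in WT and 96.3% in S303/7A, where 1 cell held 51 of 82 UMIs. Without the 1% of cells with most Gzma the ratio was 0.0148 in C06 and 0.117 in C11. The WT C11 cells with Gzma carried NK genes more often: of 28 such cells, after thinning to 3000 UMIs, 17.9% held Klrb1c and 10.7% Ncr1, against 1.47% and 1.10% of the other 272, and 57.1% against 83.1% held Cd8a. Of 34 WT C06 cells with Gzma none held either NK gene. Without cells that held Ncr1 or Klrb1c the Gzma ratio was 0.0600 in C06 and 0.0484 in C11.

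Granzyme K, the chromosome 13 neighbour of Gzma, was a CD8T transcript. In C06 Gzmk was at 1.18 CP10K (WT) and 0.325 (S303/7A), at 0.546 and 0.441 in C11, and at 0.104 and 0.0589 in NK cells, on 16 and 4 UMIs. Before thinning it was found in 25.1% (20.8 to 29.7) and 11.8% (8.93 to 15.2) of C06 cells, and in 22.9% and 26.1% of C11 cells. With cells thinned to 3000 UMIs, Gzmk was in 17.9% of WT and 6.91% of S303/7A cells of C06. In C11 it was then in 13.3% and 8.52%, so at equal depth the share was lower in S303/7A in C11 too. Its ratio was 0.253 (0.192 to 0.330) in C06 and 0.882 (0.683 to 1.14) in C11. The difference between those 2 ratios was not tested. Unlike Gzma it was spread thinly, with at most 6 UMIs in a WT and 12 in a S303/7A cell of C06.

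Granzymes C, D, E and F, the close relatives on chromosome 14, differed in abundance. Gzmc was abundant in NK cells, at 19.2 CP10K (WT) and 15.4 (S303/7A), in 35.6% and 36.1% of cells before thinning. At equal depth the share was lower in S303/7A. With cells thinned to 3000 UMIs, Gzmc was in 44.7% of WT and 32.8% of S303/7A NK cells, and 21.05% and 13.22% held at least 10 Gzmc UMIs. With cells thinned to 1000 UMIs, Gzmc was in 24.7% and 21.8%. It was uneven there, since 4 of the 194 S303/7A NK cells held at least 50% of its UMIs, 1 of them with 920, against 13 of 357 in WT. The Gzmc ratio was 0.906 (0.863 to 0.950) in NK cells, 1.11 (0.958 to 1.28) in C06 and 1.19 (1.08 to 1.30) in C11. It was on the other side of 1 in NK cells without cells holding Cd3d, Cd3e or Cd3g (1.08) and in C11 without cells holding Ncr1 or Klrb1c (0.799). Without the 1% of cells with most Gzmc the NK ratio was 0.692.

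Gzmd, Gzme and Gzmf were rare, and higher in S303/7A in C06. Gzmd was at 0.219 CP10K (WT) and 0.648 (S303/7A), in 2.33% (1.07 to 4.37) and 7.71% (5.40 to 10.6) of C06 cells, with a ratio of 2.52 (1.89 to 3.41). Gzme was at 0.264 and 0.657, in 2.07% and 10.2% of cells, with a ratio of 2.09 (1.60 to 2.76). Gzmf was at 0.540 and 1.60, in 6.72% and 10.4% of cells, with a ratio of 2.87 (2.36 to 3.51). These C06 values rest on few WT cells: without the 1% of cells with most of the gene the ratios were 11.4 for Gzmd and 20.9 for Gzme. In C11 the ratios were 1.37 (1.05 to 1.80), 1.52 (1.13 to 2.07) and 1.46 (1.22 to 1.73). In cells thinned to 1000 UMIs the Gzme ratio of C11 was 1.16, inside 1.5-fold. In NK cells too these 3 rested on few cells. Gzmf was at 3.92 CP10K in WT, with 98.9% of 823 UMIs in 10 cells, and at 0.272 in S303/7A, with a ratio of 0.111 (0.0867 to 0.139). Gzmd and Gzme had NK ratios of 2.27 and 1.47, which were 0.269 and 0.311 without the 1% of cells with most of the gene: 1 S303/7A cell held 232 of 266 Gzmd UMIs.

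Counts of these close relatives can be split by the mapping. In the last 500 bases of the transcript, the end that these libraries read, 37.7% of the 31-base words of Gzmd, 45.5% of Gzme and 21.1% of Gzmf also occur in another gene, against 4.04% for Gzmc and 0 for Gzma, Gzmb, Gzmk and Prf1. At 90 bases the shares were 1.70% for Gzmd and Gzme and 0 for the other members. How reads with several matches were counted is not given in the sources used here, so the separate values of Gzmd and Gzme are uncertain.

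Set side by side, the libraries gave these counts of calls. In NK cells 3 of 7 members tested were lower in S303/7A (Gzma, Gzmb, Gzmf), where 7.09% of 4600 genes were lower, and 1 was higher (Gzmd), where 4.07% were. In C06 3 of 8 were lower (Gzma, Gzmb, Gzmk; 5.38% of 6617 genes) and 3 higher (Gzmd, Gzme, Gzmf; 5.95%). In C11 2 of 8 were lower (Gzma, Gzmb; 4% of 6948 genes) and 1 was higher (Gzme; 5.01%). In CD8T as a whole 3 were lower (4.96% of 8606 genes) and 3 higher (6.18%), the same genes as in C06. In Treg only Gzmb reached 50 UMIs, and it was lower (8.77% of 4139 genes were lower and 4.45% higher). The members' median ratio was 0.851 in NK cells against 0.970 over all genes tested, and 1.19 in C06 against 0.987. C11 held 306 of 693 CD8T cells in WT and 176 of 617 in S303/7A, and with both clusters weighted equally the CD8T counts were again 3 lower and 3 higher.

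**Figure D3:**
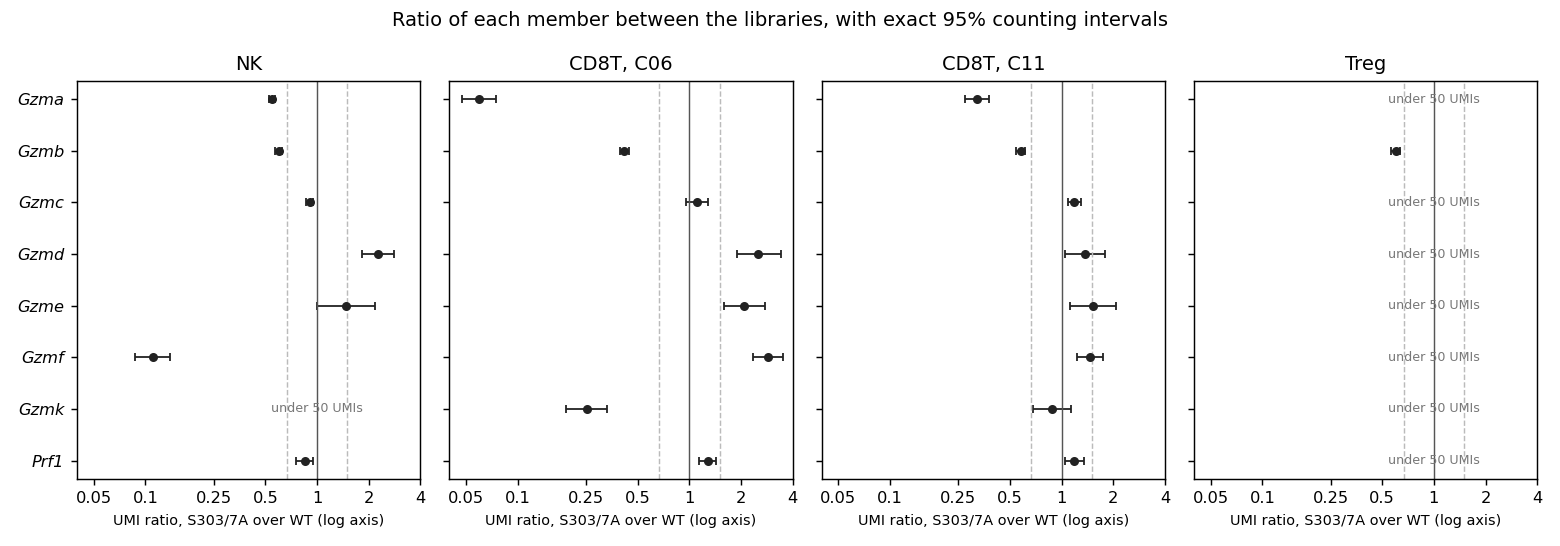
Ratio of each member's UMIs, S303/7A over WT (log axis), in NK cells, CD8T clusters C06 and C11, and Treg; bars are exact 95% counting intervals, the solid line marks 1 and the dashed lines 1.5-fold. Gzma and Gzmb lie left of the dashed line wherever they were tested, and in C06 Gzmd, Gzme and Gzmf lie right of it (2.52, 2.09 and 2.87).

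Genes listed as markers of other cell types moved with these comparisons, in both directions. The summed level of 8 macrophage genes was 5.99 CP10K in NK cells of WT and 14.7 in those of S303/7A (7 of 8 genes higher), 7.60 and 16.6 in C06 (8 of 8), 5.74 and 13.1 in C11 (8 of 8) and 11.4 and 15.2 in Treg (6 of 8). The 4 monocyte genes went the other way, 29.3 and 19.8 CP10K in NK cells (4 of 4 lower), 44.6 and 26.2 in C06 (3 of 4), 22.3 and 18.9 in C11 (3 of 4) and 19.7 and 11.2 in Treg (4 of 4), and 4 stromal genes summed to 0.758 and 0.431 in NK cells (3 of 4 lower). In WT the monocyte genes summed to 0.864 CP10K in tumor cells, 7.34 in macrophage cluster C03 and 98.8 in macrophage cluster C02. Whether lymphocytes made these transcripts themselves was not tested, so the monocyte sum is no measure of foreign RNA. NK marker genes in NK cells summed to 22.7 and 24.1 CP10K, T cell genes to 11.2 and 11.1, and Treg genes in Treg to 28.2 and 27.8. In cells that held no UMI of another type's markers the Gzmb ratio was 0.394 in NK cells and 0.216 in C06, the Gzma ratio 0.342 in C06 and the Gzmk ratio 0.120 in C06, with 27 NK and 34 C06 cells of S303/7A left. The part of RNA of other cell types and of depth in the ratios was not tested.

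Of 20 other genes of the granule pathway in the table (a list of partners, chaperones, release machinery and inhibitors), 14 had enough UMIs in NK cells, and 2 were lower and 1 higher there, against 7.09% and 4.07% of all genes. Lower were Serpinb6b at 4.50 and 2.71 CP10K (ratio 0.595, 0.516 to 0.684) and Serpinb9 at 3.63 and 2.43 (0.642, 0.548 to 0.751), both serpin protease inhibitors of which Serpinb9 protects cells from their own granzyme B. Lamp2, a lysosome membrane protein, was past 1.5-fold upward (1.53, 1.00 to 2.35). The others were within 1.5-fold, with a list median of 0.945. Srgn, the proteoglycan that packs granzymes, was at 10.7 and 10.0 CP10K, and Nkg7, a granule membrane protein, at 39.3 and 32.2. In CD8T 17 were tested, 0 were lower and Stx11, needed for granule fusion, was higher (1.53, 1.24 to 1.90), against 4.96% and 6.18% of all genes, with a median of 1.07. Serpinb6b had a ratio of 1.46 (1.31 to 1.62) there, and the difference from its NK ratio was not tested. In Treg 3 of 14 were lower, Nkg7 (0.462), Cst7, an inhibitor of the cathepsins that mature granzymes (0.637), and Rab27a, which docks granules (0.600, 0.340 to 1.06), and Unc13d was higher (1.68, 0.947 to 3.13), against 8.77% and 4.45% of all genes.

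The members were also counted in combination, cell by cell. For these counts each cell was thinned to 3000 UMIs, and a share of cells holding a pair was set beside the product of both genes' shares, the value for genes found independently of each other. NK cells held a mean of 2.74 of the 8 members in WT (228 cells) and 2.36 in S303/7A (174 cells). The means were 1.58 and 1.24 in C06 (324 and 434 cells), 1.65 and 1.40 in C11 (300 and 176) and 0.944 and 0.849 in Treg (71 and 132). Cells with none of the 8 were 3.07% and 8.05% of NK cells, 15.1% and 32.0% of C06, 13.3% and 23.3% of C11, and 23.9% and 23.5% of Treg. In NK cells the members made up a mean of 1.09% of a cell's UMIs in WT and 0.753% in S303/7A, and up to 9.57% in 1 cell.

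In NK cells Gzma, Gzmb and Prf1 were found in the same cells somewhat above the product of their shares. All 3 were in 41.7% of WT and 38.5% of S303/7A cells, against products of 35.1% and 27.5%. Gzmb was in 93.7% of WT cells with Gzma and 83.7% of those without. Prf1 was in 70.4% and 50% of them in WT, and in 62.1% and 37.9% in S303/7A. Across single NK cells the correlation of log levels was 0.37 in WT and 0.50 in S303/7A for Gzma with Gzmb, 0.42 and 0.37 for Gzma with Prf1, and 0.35 and 0.38 for Gzmb with Prf1. These are descriptions over cells of 1 library each.

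Gzmc was less frequent in NK cells with Gzma. Of 142 WT cells with Gzma 38.0% held Gzmc, and of 86 without it 55.8% did. In S303/7A 26.7% of 116 and 44.8% of 58 did. The correlation was −0.12 in WT, too weak to read, and −0.26 in S303/7A. Gzmd was found mostly in cells that held Gzmc: all 9 WT and all 4 S303/7A NK cells with Gzmd also held Gzmc, and 6 of the 7 WT cells with Gzme held Gzmd, which may count the same reads since these genes share sequence. In C06 the 4 WT cells with Gzmd all held Gzmc, as did 16 of 20 in S303/7A. Gzme and Gzmf followed Gzmc less closely: in C06 of S303/7A 18 of 29 cells with Gzme and 20 of 32 with Gzmf held Gzmc, and in WT 5 of 5 and 9 of 16. In C06, 11 of 324 WT and 30 of 434 S303/7A cells held at least 2 of Gzmc, Gzmd, Gzme and Gzmf, and 3 and 11 held all 4.

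In CD8T cluster C06 of WT, Gzmc and Gzmk were not found in the same cells. No WT C06 cell held both Gzmc and Gzmk, although 34 of 324 held Gzmc and 58 held Gzmk, and Gzmk was in 20% of the 290 cells without Gzmc. In S303/7A 1 of 434 did, and in C11 3 of 300 and 1 of 176, at 0.469 and 0.345 of the product of shares. Prf1 was in 17.2% of WT C06 cells with Gzmk and 40.2% of those without, and in 30% and 43.3% in S303/7A. Gzma and Gzmk, by contrast, shared cells in WT: 15 of 34 C06 cells with Gzma held Gzmk, 2.47 times the product, and in S303/7A 1 of 5 did. Gzmb was in 97.1% of WT C06 cells with Gzma and in 97.1% of those with Gzmc, against 73.1% of cells without either gene in turn, and in 75.9% of those with Gzmk. In S303/7A it was in 65.3% of C06 cells with Gzmc and 63.3% of those with Gzmk.

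**Figure D4:**
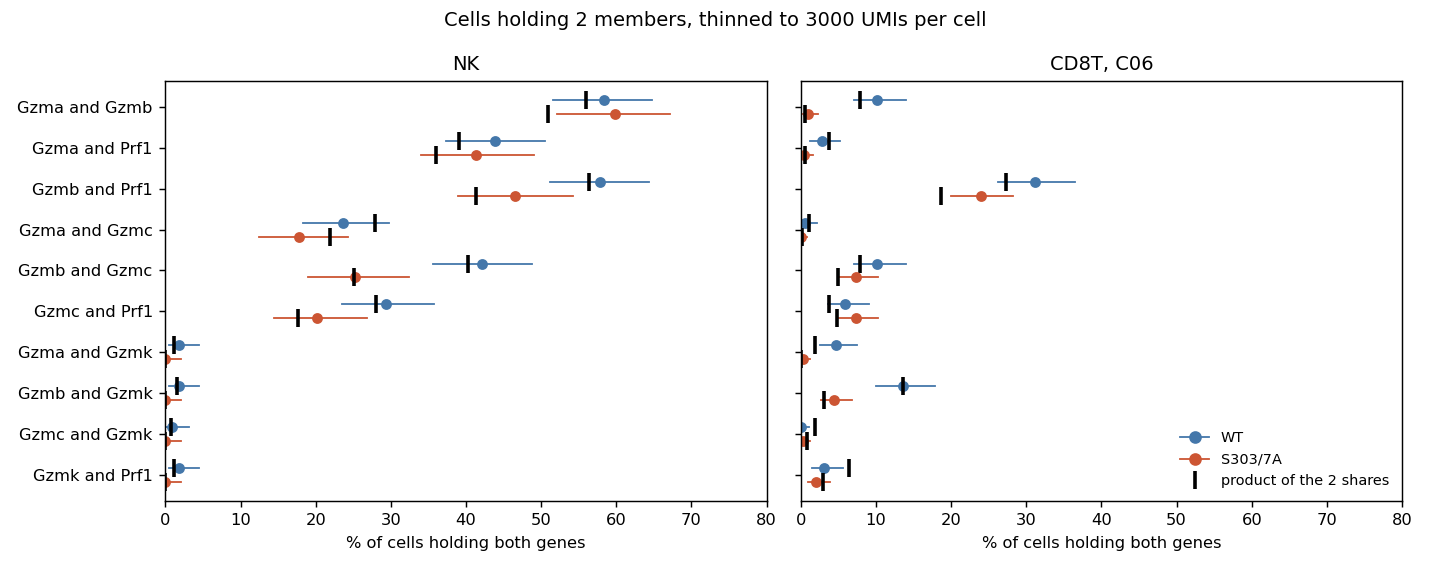
Percent of cells (thinned to 3000 UMIs) that hold both genes of a pair, in NK cells and CD8T cluster C06; points are WT (blue) and S303/7A (orange) with exact 95% binomial intervals, and black ticks are the product of the genes' shares. Each interval belongs to the joint share alone and carries no error of the product. Gzma with Prf1 lies at 43.9% against 39.1% in WT NK cells, and Gzmc with Gzmk is at 0 in WT C06, left of its tick.

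Other genes differed between cells with and without a member. The genes of this and the next paragraph were picked from receptor, fate and marker lists after their values were seen, and cells of a library are no replicates. NK cells with Gzma held Klra4, an Ly49 receptor gene, in 64.1% of 142 WT cells against 26.7% of 86 without Gzma, and in 68.1% of 116 against 46.6% of 58 in S303/7A. Eomes, a factor of conventional NK cells, was in 29.6% against 11.6%, and in 47.4% against 22.4%. Cd160 ran the other way, at 12.7% against 34.9% and 24.1% against 32.8%. T cell genes summed to 1.81 thinned UMIs per WT cell with Gzma and 4.88 without it (S303/7A cells 2.03 and 6.5), with Cd3e in 1.41% against 15.1% and 4.31% against 22.4%. Part of the Gzma-free NK class thus carried T cell transcripts. NK cells with Gzmc showed the opposite for Klra4, 30.4% of 102 against 65.9% of 126 in WT, and 50.9% of 57 against 65.8% of 117 in S303/7A.

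C06 cells with Gzmk had fewer transcripts of exhaustion genes, receptors that restrain chronically stimulated T cells. The 11 genes of that list summed to 4.72 thinned UMIs per cell in 58 WT cells with Gzmk and 7.33 in 266 without it, with 10 of 11 genes lower, and to 6 and 7.02 in S303/7A (30 and 404 cells), with 7 of 11 lower. Pdcd1, which encodes PD-1, was in 48.3% against 68.4% in WT and 66.7% against 76.7% in S303/7A. Slamf6, a marker of precursor exhausted cells, was in 13.8% against 4.89% and in 23.3% against 6.93%. Memory genes summed to 4.59 against 3.51 in WT (9 genes higher, 1 lower) and 4.03 against 3.58 in S303/7A (5 higher, 5 lower). In C11 the exhaustion genes beside Gzmk summed to 5.05 against 5.21 in WT (6 higher, 5 lower). In S303/7A C11 they summed to 4.87 against 5.29 (4 higher, 7 lower). In cells with Gzmc the exhaustion list was mixed, with 6 of 11 genes higher and 5 lower in each library (7.74 against 6.76 thinned UMIs in WT, 7.49 against 6.88 in S303/7A). A gene of it, picked after its values were seen, was Havcr2, which encodes TIM-3: 38.2% of 34 against 15.9% of 290 in WT, and 26.5% of 49 against 15.6% of 385 in S303/7A. For Havcr2 beside Gzmk the libraries differed in sign, 6.90% against 20.7% in WT and 20.0% against 16.6% in S303/7A.

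**Figure D5:**
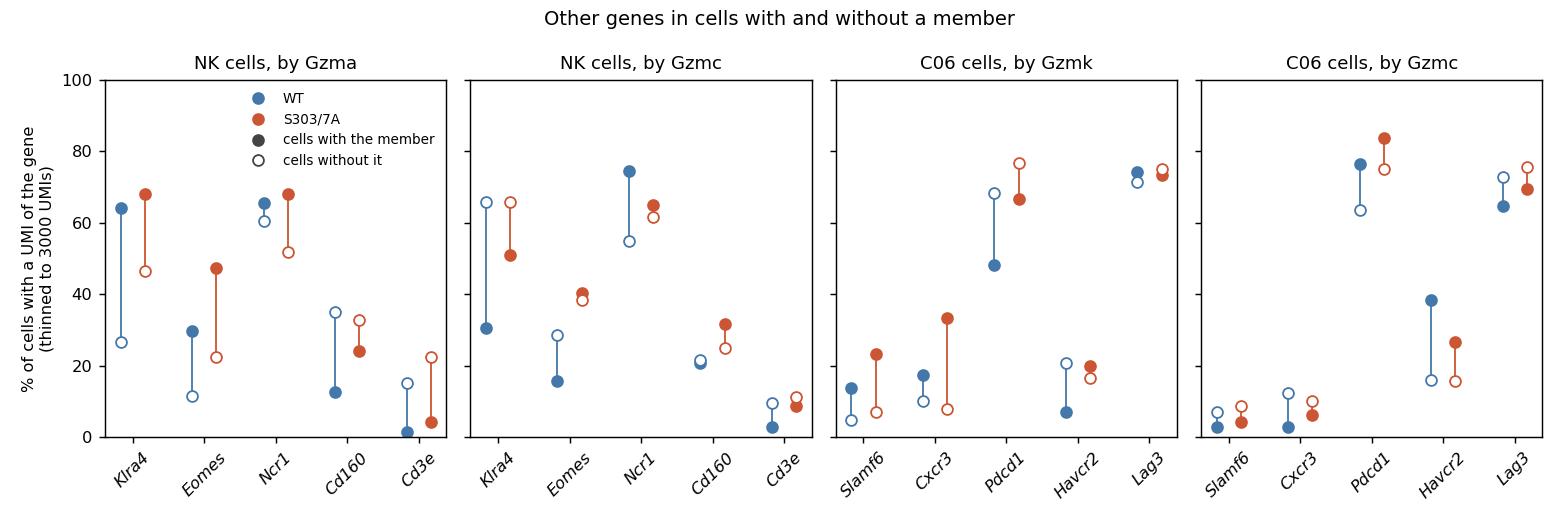
Percent of cells with a UMI of other genes among cells with (filled) and without (open) a member, thinned to 3000 UMIs; NK cells are split by Gzma or Gzmc and CD8T cluster C06 by Gzmk or Gzmc, blue is WT and orange S303/7A. Klra4 is more frequent in NK cells with Gzma (64.1% against 26.7% in WT) and less frequent in those with Gzmc (30.4% against 65.9%).

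Treg with Gzmb held Foxp3, Ikzf2 and Il2ra more often, and general T cell genes were higher in them too. In WT, of 54 Treg with Gzmb and 17 without it, Foxp3, which sets Treg identity, was in 68.5% against 41.2%, Ikzf2 in 87.0% against 64.7% and Il2ra, the alpha chain of the interleukin 2 receptor, in 64.8% against 35.3%. In S303/7A (99 and 33 cells) the shares were 58.6% against 48.5%, 93.9% against 75.8% and 36.4% against 21.2%. Values of Cd4, the other gene of the Treg list, are not given here. T cell genes summed to 16.4 thinned UMIs per cell with Gzmb and 12.4 without it in WT (5 of 5 genes higher), and to 18.4 and 16 in S303/7A (4 of 5 higher), so the contrast is not particular to Treg genes. Exhaustion genes went both ways, 6 higher and 5 lower in WT and 5 higher and 4 lower in S303/7A. Of these, Lag3 was in 51.9% against 17.7% and in 27.3% against 12.1%. Cd8a was in 11.1% against 11.8% of WT and 4.04% against 18.2% of S303/7A cells. These genes too were picked after their values were seen, and the groups without Gzmb are small. Thinning to 3000 UMIs left out 184 of 255 WT and 88 of 220 S303/7A Treg, so only the deeper cells are described.

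Genes with the most similar pattern were named by a rule: the 5 highest correlations with each member over 42 pairs of cluster and library, on log levels of 11242 genes. Gzma was most like Klra7 (r = 0.92), Samd3, Gzmc, Sult2b1 and Eomes, and Gzmb like Tbx21 (0.96), Il2rb, Prkcq, Nkg7 and Lck. Gzmc was most like Prf1 (0.96), and Prf1 like Fcrl6 (0.96), Gzmc, Fasl, Klre1 and Kcnk7. Gzmd was led by Ifitm10 (0.97) and Gzme by Cd160 (0.95), while Gzmf was led by Gzme (0.92). Gzmk was most like the gamma-delta receptor constant gene Tcrg-C2 (0.94), Perp, Cd226, Ifng and Abcb9. Among members, Gzmc with Prf1 was the closest pair and Gzma with Gzmk the most distant (0.55), although they adjoin on chromosome 13. The points share libraries and depths.

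Within NK cells, over 2808 genes in WT and 2798 in S303/7A, the genes nearest to Gzmb and to Prf1 cell by cell included the other members of the trio with Gzma, while for Gzma Prf1 was among the 5 nearest in WT only. Gzmb was led by Tnfrsf9 (0.38) and Irf8 (0.38) in WT and by Gzma (0.50) and Isg15 (0.47), an interferon-response gene, in S303/7A. Irf8 was also among the 5 nearest genes of Prf1 in both libraries (0.31 and 0.46). Gzma was joined by Klra7 (0.30) and Klra4 (0.28) in WT and by the chemokine genes Ccl3 (0.42), Ccl5 (0.41) and Ccl4 (0.39) in S303/7A. Gzmc was nearest to Ifitm2 (0.56), S100a4 (0.44) and S100a6 (0.41) in WT and to Tmsb10 (0.32) in S303/7A. In CD8T no gene passed a correlation of 0.31 with Gzma, Gzmb, Gzmc, Gzmk or Prf1, and values of this size, those in NK cells included, are too weak in sparse counts to be a finding.

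Tumor cells and B cells, which should lack the members, give the background. Gzmb was in 10.9% (9.70 to 12.3) of WT and 9.20% (7.42 to 11.2) of S303/7A tumor cells, at 0.0923 and 0.0446 CP10K and at median depths of 25531 and 28127 UMIs, and Gzma in 6.43% and 3.53%. No B cell of 47 in WT and 14 in S303/7A held a Gzma UMI, which by the rule of 3 counts allows shares of cells with a UMI up to 6.38% and 21.4%. B cells were not free of every member: Gzmb was at 0.0365 and Gzmf at 0.0475 CP10K in WT, and Gzmc at 0.311 in S303/7A. Gzmd, Gzme, Gzmk and Prf1 were at 0 there in both libraries. Per cell, without scaling to depth, Treg held 8.05 and 8.96 Gzmb UMIs and tumor cells 0.241 and 0.126. For Prf1 the same values were 0.0588 and 0.0727 in Treg and 0.0360 and 0.0278 in the much deeper tumor cells. By CP10K, Prf1 was at 0.293 and 0.284 in Treg, and at most at 0.0148 (WT) and 0.0118 (S303/7A) in a tumor cluster. Macrophage cluster C03 held 5 Prf1 UMIs in 374 WT and 6 in 545 S303/7A cells. The shallow macrophage cluster C09 was at 0.305 and 0.0893 CP10K. Whether Treg made Prf1 themselves was not tested. Treg held 2.89 and 3.75 Gzmb UMIs per Nkg7 UMI, against 0.996 and 0.740 in NK cells. These Gzmb ratios to Nkg7 thus differed between the classes in both libraries.

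Cluster C05, deposited as macrophages, held Gzma, Gzmb and Prf1 well above tumor cells, with Gzma at a level like that of the CD8T clusters. Gzma was at 2.79 CP10K (WT) and 0.864 (S303/7A) and Gzmb at 5.19 and 2.68, and 6 of the 8 members were lower there (4.74% of 9592 genes were lower and 8.29% higher). T cell genes were in 94.2% and 98.7% of its cells and NK genes in 49.2% and 56.5%, beside macrophage genes at 157 and 290 CP10K. Of the cells with the highest doublet scores, C05 held 187 of 361 in WT and 137 of 215 in S303/7A. Among dendritic cells, 112 of 121 WT Gzma UMIs came from 1 cell.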

How the data were processed

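Cells came from 1 library per genotype (WT, S303/7A), and the mapping of cells to libraries, clusters and classes is the deposited annotation. Expression was deposited on a natural log scale: the authors' values are the natural log of 1 plus a gene's UMIs scaled to 100000 per cell. The total UMI count of each cell was deposited as a count, and the mitochondrial share as a percent. Per the submitters' processing notes the tools were Cell Ranger and Seurat 3.0 and the builds mm10 and GRCm38. No source used here gives the authors' filters on cells. From there, the authors' values were turned back into UMIs: 99.94% of nonzero values lay within 0.1 of a whole number. Levels are UMIs per 10000 of a cell, averaged over cells. The WT library holds 87075629 UMIs and the S303/7A library 72802158.

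Ratios were computed for all genes with at least 50 UMIs in both libraries together, and a gene is called at 1.5-fold. No p-value was made from cells. Shares carry exact (Clopper-Pearson) 95% intervals and ratios exact conditional ones, both covering counting error only, and ratio and thinning steps were tested on simulated data. Thinning to 3000 UMIs left out 1053 WT and 352 S303/7A cells, and thinning to 1000 left out 199 and 63. Doublets were scored with Scrublet in scanpy 1.11.5, with an expected share of 5.32% in WT and 3.84% in S303/7A that was assumed from the cell numbers. Its own threshold marked 0.827% and 0.083%, so the 361 and 215 highest-scoring cells were left out as an alternative only, and main values use all cells. Positions come from GENCODE release M21 and promoter sequences from RefSeq (GRCm38.p6). Named genes are the 8 members, the 5 nearest genes over clusters and over cells, and granule genes past 1.5-fold. The members and lists were chosen with earlier results of these data known, and the alternatives that leave out shared barcodes, cells with CD3 genes, or cells with Ncr1 or Klrb1c were chosen after seeing the data. Python 3.11.15, numpy 2.4.6, scipy 1.17.1 and pandas 2.3.3 were used.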

Additional observations from a re-analysis of the deposited data

Results flagged for a closer look

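Gzmf and Prf1 had ratios on opposite sides of 1 in NK cells and CD8 T cells. The Gzmf ratio, S303/7A over WT, was 0.1105 in NK cells and 2.12 in CD8T, and the Prf1 ratio 0.8505 in NK cells and 1.317 in CD8T. Both Prf1 ratios are within 1.5-fold. The CD8T ratio of Prf1 was 1.005 without cells holding UMIs of other types (199 and 39 cells left). With 1 library per genotype these differences between classes were not tested. In NK cells 98.9% of the WT Gzmf UMIs lay in 10 cells.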

How the results depend on the processing

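With 1 library per genotype no replicate can be left out, and every interval covers counting error only. No paired analysis was possible because each genotype is 1 library. The number of members lower in S303/7A stayed at 3 in CD8T and C06 under every alternative. The number higher ranged from 0 to 2 in NK cells (1 by the main rule), 2 to 3 in CD8T (3), 1 to 3 in C06 (3) and 0 to 4 in C11 (1), with fewer members tested in thinned cells. For lower members in NK cells, 3 by the main rule, it was 5 without cells holding UMIs of other types (157 and 27 cells left) and 1 at 2-fold. In C11, 2 by the main rule, it was 1 in cells thinned to 1000 UMIs and 1 at 2-fold. In Treg, 1 by the main rule, it was 0 by mean CP10K, 0 in thinned cells, 0 without cells holding UMIs of other types (146 and 50 left) and 0 at 2-fold, and 2 with at least 10 UMIs in place of 50.

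Of single ratios, 205 moved by less than their counting interval, 82 by more, and 6 whose interval excluded 1 crossed it. Ratios whose interval held 1 also crossed it, Gzmc in C06 (0.883) and CD8T (0.880) and, on few UMIs, Gzma (up to 1.90), Gzmc (1.20) and Prf1 (2.05) in Treg. Gzmc in NK cells was 1.075 without cells holding Cd3d, Cd3e or Cd3g (275 and 130 left), and Gzmc in C11 was 0.7994 without cells holding Ncr1 or Klrb1c (289 and 164 left). Gzmd was 0.2692 and Gzme 0.3106 in NK cells without the 1% of cells with most of the gene. Prf1 was 0.8974 in C06 and 0.8384 in C11 without cells holding UMIs of other types. The cause was not tested. Co-detection ratios kept to their interval in 28 alternatives and moved in 2. Levels by cluster or class moved by more than their interval in 58 alternatives and by less in 38.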
